A study of Mus musculus with 50 samples.

Results

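The retinoic acid pathway genes Rara, Rarb, Rarg, Cyp26a1, Cyp26b1, Aldh1a2, Aldh1a3, Crabp1 and Crabp2 were followed by name through RNA-seq and ChIP-seq of mouse embryonic stem cells (ESCs), as 9 of the 18055 genes in the RNA-seq table. All lines derived from the established ESC line E14TG2a. They were grown with 2i/LIF, which holds ESCs in a naive state, in a medium that also contained fetal calf serum. No retinoic acid was listed among the medium's components, and the retinoid content of the serum was not given. RNA-seq covered 4 lines with 2 libraries each: the unedited wild type (WT), Ezh2 KO, in which the whole Ezh2 gene was excised, Ezh1/2 dKO, in which Ezh1 and Ezh2 were both excised, and Ezh2 Y726D, a point mutation in the Ezh2 catalytic domain made by knock-in into Ezh1 KO cells. Some ChIP-seq labels of this line name the Ezh2 mutation alone, and they were taken as the same line. Another line, Ezh2 R685C, also a knock-in in Ezh1 KO cells, had ChIP-seq data and no RNA-seq library here. Ezh1/2 dKO cells transfected with HA-tagged human EZH1 were used for ChIP-seq of the tag only. The mutant lines were isolated as CRISPR/Cas9 clones, so differences between lines include whatever distinguishes individual clones. For ChIP-seq, 1 library per mark and line was used, so that no ChIP-seq difference could be tested.

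Retinoic acid is made from vitamin A by successive oxidations, the last of which is carried out by retinaldehyde dehydrogenases of the ALDH1A family. It is carried in the cytoplasm by the binding proteins CRABP1 and CRABP2, it acts through the nuclear receptors RARα, RARβ and RARγ, which pair with RXR proteins on DNA, and it is removed by the cytochrome P450 enzymes of the CYP26 family. Several of these genes, Cyp26a1 and Rarb among them, are classical direct targets of the receptors and rise when ESCs are given retinoic acid. Polycomb repressive complex 2 (PRC2), whose subunits include SUZ12 and one of the methyltransferases EZH1 or EZH2, places methyl groups on lysine 27 of histone H3 and keeps developmental genes silent in ESCs. H3K27me3 is its trimethylated product, and H3K27ac, acetylation of the same lysine, is found at active promoters and enhancers.

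The stretches before the start sites of 4 of the genes are given first, in RefSeq's sequence (GRCm38.p6), 5′ to 3′ on the gene's strand, as the 250 bases before the RefSeq start, and each had 1 exact match on its chromosome in NCBIM37 (mm9), the build of the peak lists. The first pair was chosen for the direct repeat to which RAR and RXR bind, searched as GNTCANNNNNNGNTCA on both strands, with its conserved letters in capitals. In Cyp26a1 (chr19:37772048-37772297, plus strand) the match lay on the opposite strand, 32 to 17 bases before the start, and in Rarb (chr14:17407991-17408240, minus strand) it lay 52 to 37 bases before the start of the shorter isoform.
Cyp26a1: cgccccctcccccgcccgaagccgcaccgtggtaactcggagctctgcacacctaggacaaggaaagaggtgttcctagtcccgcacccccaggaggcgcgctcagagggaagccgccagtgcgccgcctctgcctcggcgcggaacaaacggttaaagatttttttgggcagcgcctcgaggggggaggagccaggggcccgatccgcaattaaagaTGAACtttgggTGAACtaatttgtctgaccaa
Rarb: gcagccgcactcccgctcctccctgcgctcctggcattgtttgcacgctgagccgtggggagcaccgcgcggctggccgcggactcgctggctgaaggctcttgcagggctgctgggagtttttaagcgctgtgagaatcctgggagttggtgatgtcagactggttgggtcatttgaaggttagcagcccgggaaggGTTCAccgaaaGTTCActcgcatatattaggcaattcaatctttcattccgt
Duplicate sequences and the entries of a chromosome that holds none of the 9 genes were left out of the RefSeq table of mouse promoters. Among the 32544 promoters searched, 272 (0.836%) held this motif within their 300 bases. Of the 9 genes, 7 had entries there, and the motif occurred in Cyp26a1 and Rarb only. The closer-spaced form GNTCANNNGNTCA, held by 1.12% of promoters, occurred in none of the entries. A match describes these letters and does not show that a receptor was bound. The first of the pair lay inside SUZ12 and H3K27me3 peaks in WT, and the second inside neither.

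The next pair was chosen because these genes gave the clearest changes in expression and both start inside a WT SUZ12 peak. CpG dinucleotides are in capitals, in Aldh1a2 (chr9:71063346-71063595, plus strand) and in Crabp1 (chr9:54612305-54612554, plus strand).
Aldh1a2: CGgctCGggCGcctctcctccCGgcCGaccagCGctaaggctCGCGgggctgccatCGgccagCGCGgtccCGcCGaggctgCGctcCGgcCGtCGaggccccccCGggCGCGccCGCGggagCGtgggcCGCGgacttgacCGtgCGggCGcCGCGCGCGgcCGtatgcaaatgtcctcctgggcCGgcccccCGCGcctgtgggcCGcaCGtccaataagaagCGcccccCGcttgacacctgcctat
Crabp1: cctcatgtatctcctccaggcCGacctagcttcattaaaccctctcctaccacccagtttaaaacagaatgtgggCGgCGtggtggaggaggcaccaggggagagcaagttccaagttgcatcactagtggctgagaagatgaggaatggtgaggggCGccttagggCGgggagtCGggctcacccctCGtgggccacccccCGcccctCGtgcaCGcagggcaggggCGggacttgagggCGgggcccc
The Aldh1a2 stretch held 40 CpGs and the Crabp1 stretch 12. Over the 300 bases of the RefSeq entries, Aldh1a2 had 50 CpGs, more than 99.1% of the promoters searched. Cyp26a1 had 26 and Crabp1 and Rarb 17 each, against a median of 7 over the promoters searched. The 2 starts, both inside PRC2 domains in WT, thus differed widely in their number of CpGs.

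SUZ12 was taken as the position of PRC2. In WT, peaks lay within 5 kb of an annotated transcription start site at 5 of the 9 genes: both catabolic enzymes, Cyp26a1 and Cyp26b1, both synthesizing enzymes, Aldh1a2 and Aldh1a3, and Crabp1. Such a peak was found at 14.5% of the 22225 protein-coding genes. No SUZ12 or H3K27me3 peak lay at any of the receptors, Rara, Rarb and Rarg, in any of the 5 lines. The longest occupied stretches were those of the CYP26 genes. At Cyp26a1 (chr19:37772298-37776018, plus strand), 3 WT peaks covered 55.3% of the window around the start. A single WT peak at Cyp26b1 (chr6:84521938-84543740, minus strand) ran over 7998 bp, chr6:84532592-84540589, across the downstream of its 2 annotated start sites and not the upstream one. Among all WT SUZ12 peaks, the highest −log10 p of Cyp26b1 stood at percentile 96.4, that of Cyp26a1 at 95.2, Crabp1 at 90.0, Aldh1a2 at 88.5 and Aldh1a3 at 64.0.

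In Ezh2 KO cells, 4 of the 9 genes had a SUZ12 peak (4.22% of genes), Aldh1a3 being the one of the WT set without, and in Ezh1/2 dKO cells the only gene with one was Cyp26a1 (1.03% of genes). The Cyp26a1 peaks in Ezh1/2 dKO were 2 narrow ones of 317 and 347 bp with a −log10 p of 10.8 each, just past the limit of 10 used here, and covered 6.64% of the window. In Ezh2 Y726D cells, 4 of the 9 genes had a peak (10.3% of genes), with Crabp1 the one missing, and in Ezh2 R685C all 5 WT genes had one (8.44% of genes). The covered share of the Cyp26a1 window was 58.3% in Ezh2 R685C, 55.3% in WT, 26.8% in Ezh2 Y726D, 24.3% in Ezh2 KO and 6.64% in Ezh1/2 dKO. At Cyp26b1 it was 46.1% in WT, 36.7% in Ezh2 KO, 31.0% in Ezh2 Y726D and 44.2% in Ezh2 R685C, and at Aldh1a2 20.3%, 10.6%, 9.11% and 19.2% in the same order. WT and R685C were thus the highest at each of these 3 genes. At Crabp1 (chr9:54612555-54620917, plus strand) the share was 23.9% in WT, 9.21% in Ezh2 KO, 0% in Ezh2 Y726D and 19.7% in Ezh2 R685C. The whole lists also differed in size, from 5404 peaks in WT to 3366 in Ezh2 Y726D, 3231 in Ezh2 R685C, 1578 in Ezh2 KO and 317 in Ezh1/2 dKO, and the part that library depth has in such lists was not tested.

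**Figure D1:**
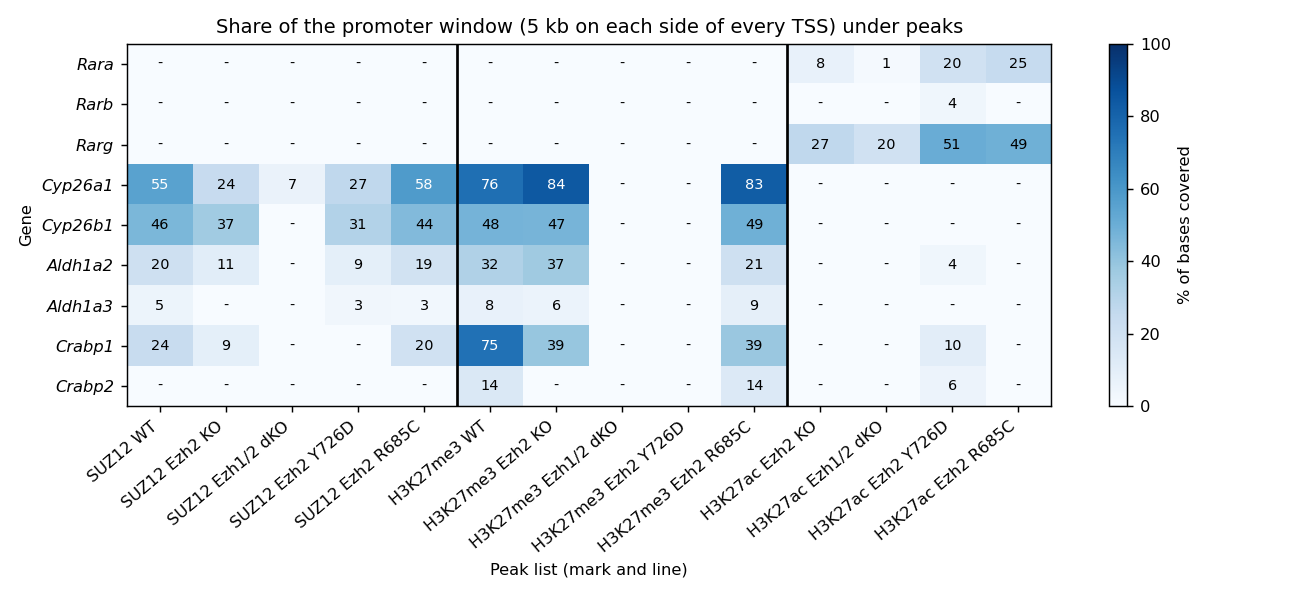
Share of the promoter window (5 kb on each side of every annotated start site) covered by SUZ12, H3K27me3 and H3K27ac peaks, in percent, for each of the 9 genes in each line, 1 library per cell. The receptors are empty for SUZ12 and H3K27me3 in every line, and H3K27me3 is empty for all 9 genes in Ezh1/2 dKO and Ezh2 Y726D.

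H3K27me3 peaks in WT lay at the same 5 genes and at Crabp2, 6 of 9 in all, against 18.8% of genes. In Ezh2 KO the mark was present at 5 of them (14.8% of genes), with Crabp2 without a peak, and in Ezh2 R685C at all 6 (24.7% of genes). In Ezh1/2 dKO, without both enzymes, and in Ezh2 Y726D, without EZH1 and with EZH2 mutated, none of the 9 genes had an H3K27me3 peak, against 0.099% and 1.35% of genes. Cyp26a1 was the most widely covered, with 75.5% of its window in WT, 84.1% in Ezh2 KO and 82.8% in Ezh2 R685C. Crabp1 was covered over 74.8% of its window in WT and over 39.4% in Ezh2 KO and 38.6% in Ezh2 R685C. At Cyp26b1 the shares lay close together, at 47.5%, 47.0% and 49.1%, and at Aldh1a2 they were 31.7%, 37.0% and 20.7%. Crabp2 (chr3:87752588-87757298, plus strand) carried weak and scattered peaks in WT, over 14.3% of its window, and its highest −log10 p stood at percentile 32.1 of the WT list. SUZ12 and H3K27me3 therefore came apart at Cyp26a1, Cyp26b1, Aldh1a2 and Aldh1a3 in Ezh2 Y726D, where SUZ12 peaks were listed and H3K27me3 peaks were not.

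**Figure D2:**
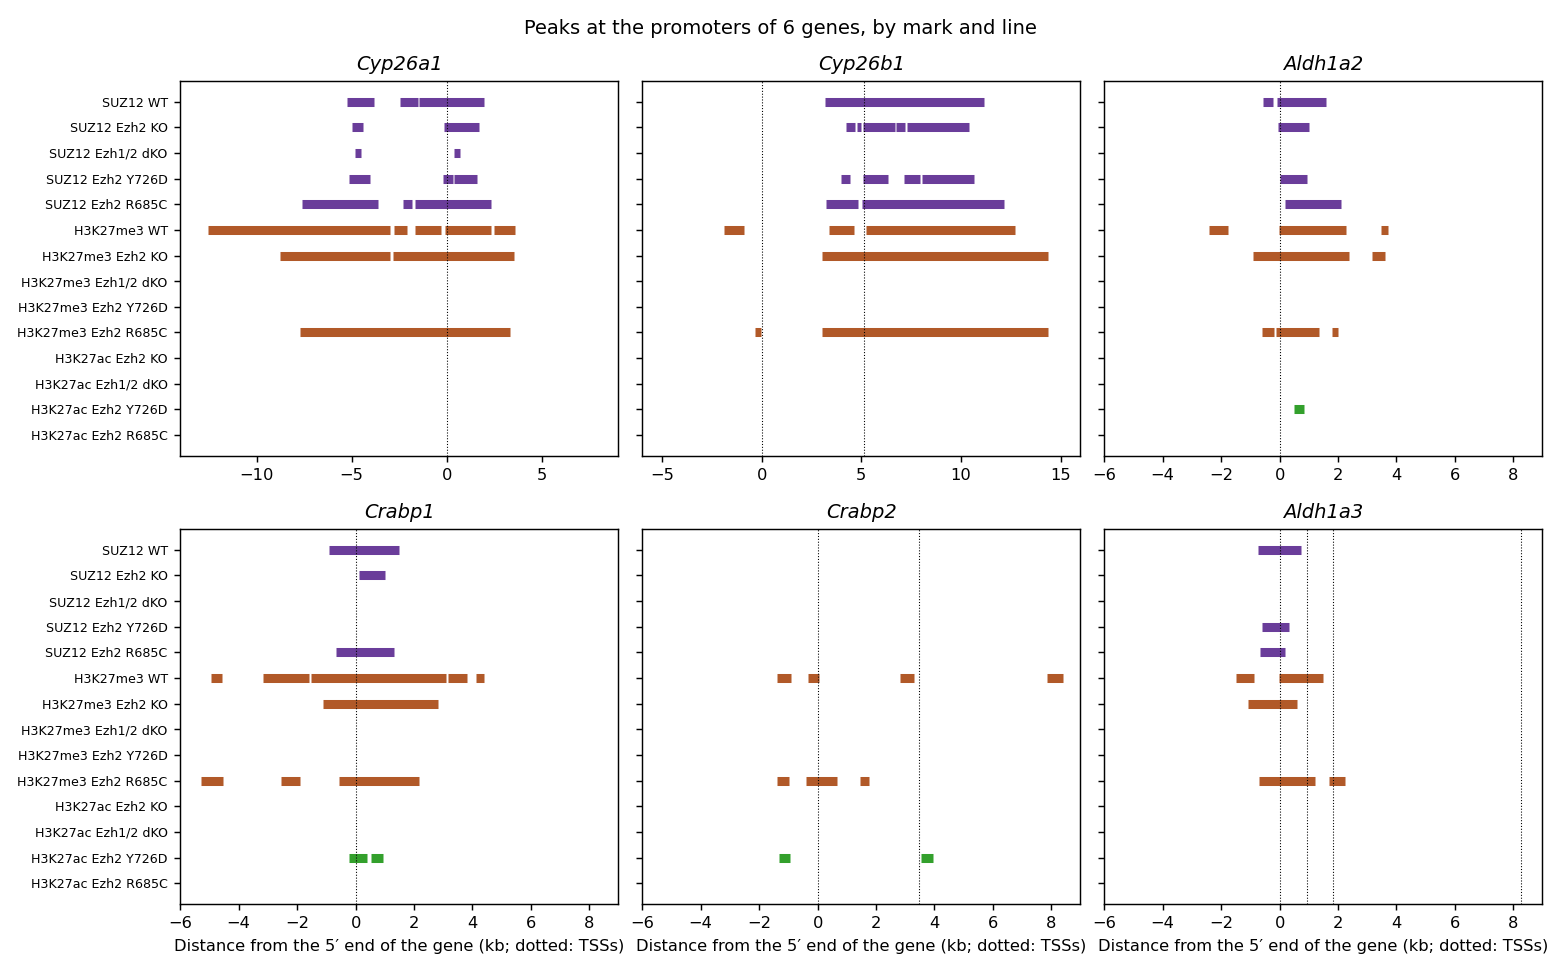
Positions of SUZ12, H3K27me3 and H3K27ac peaks around the start sites of Cyp26a1, Cyp26b1, Aldh1a2, Aldh1a3, Crabp1 and Crabp2, as distance from the gene's start in kb along the direction of transcription, with 1 row per mark and line and dotted lines at the annotated start sites. A further Aldh1a3 start site lies outside its panel. In Ezh2 Y726D, SUZ12 bars are present without H3K27me3 bars at 4 of the genes, and H3K27ac bars appear at Aldh1a2, Crabp1 and Crabp2.

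H3K27ac lists were used for the 4 mutant lines, and a WT list was not analysed here. In Ezh2 KO and Ezh1/2 dKO, 2 of the 9 genes had a peak, Rara and Rarg, against 38.0% and 28.8% of genes. The same 2 genes had one in Ezh2 R685C (46.1% of genes), and in Ezh2 Y726D there were 6 (47.2% of genes): Rara, Rarb, Rarg, Aldh1a2, Crabp1 and Crabp2. Rarg (chr15:102065369-102087948, minus strand), which encodes RARγ, was the most widely acetylated, over 26.6% of its window in Ezh2 KO, 19.8% in Ezh1/2 dKO, 50.6% in Ezh2 Y726D and 48.9% in Ezh2 R685C. At genes without a peak in the other mutant lines, Ezh2 Y726D had a single one at Rarb (chr14:17407595-17408320), over the shorter isoform's start and the repeat shown above. It also had peaks of 359 bp at Aldh1a2, 613 and 404 bp at Crabp1, and 374 and 395 bp at Crabp2. At Rara and Rarg, peaks of Ezh2 Y726D alone included chr11:98788882-98789734, chr15:102087419-102087903 and chr15:102088602-102089531, each at or near an annotated start. The lists of the 2 knock-in lines, Ezh2 Y726D and Ezh2 R685C, were of like size, with 40829 and 41185 peaks, and those of Ezh2 KO and Ezh1/2 dKO were smaller, with 25483 and 17618. Neither the CYP26 genes nor Aldh1a3 had an H3K27ac peak in any of the 4 lines.

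EZH1 without EZH2 was mapped in Ezh1/2 dKO cells transfected with a plasmid for HA-tagged human EZH1, by precipitating the tag. How the level of this protein compared with the cells' own EZH1 was not tested here. HA regions lay at Cyp26a1, Cyp26b1, Aldh1a2, Aldh1a3 and Crabp1, the 5 genes with SUZ12 in WT, against 11% of genes, and at none of the 9 in Ezh1/2 dKO cells without the tagged protein (2.92% of genes). They covered 44.8% of the Cyp26b1 window, 37.0% of Cyp26a1, 17.9% of Crabp1, 14.3% of Aldh1a2 and 1.29% of Aldh1a3. H3K27me2, the dimethylated form, was listed down to weak p-values of about 0.1, and 51.5% of genes in Ezh2 KO and 70.1% in WT had a region. In WT it covered none of the windows of Cyp26a1, Cyp26b1 and Crabp1, 6.67% of Aldh1a2 and 4.91% of Aldh1a3, while in Ezh2 KO it covered all of the windows of the first 3, 76.3% of Aldh1a2 and 91.2% of Aldh1a3. The corresponding medians over all genes were 12.6% in WT and 1.98% in Ezh2 KO. Rara and Rarg went the other way, from 22.7% to 4.96% and from 28.0% to 9.87%. The genes without SUZ12 were not alike in this, since Rarb was covered over 16.7% in WT and 41.6% in Ezh2 KO, and Crabp2 over 37.5% and 70.0%. In Ezh1/2 dKO and Ezh2 Y726D, 83.8% and 84.7% of genes had such regions, with median coverage of 13.4% and 15.0% over all genes. Over the 9 genes the coverage ran from 0% to 34.9% in Ezh1/2 dKO and from 2.25% to 50.6% in Ezh2 Y726D. The WT values of Rara, Rarb and Rarg lay within both ranges. Whether coverage of this size reflects the mark or background was not tested. The highest −log10 p at the 9 genes was 2.33 in WT, 2.23 in Ezh1/2 dKO, 1.76 in Ezh2 Y726D and 9.17 in Ezh2 KO. Each of these values stands against its own library's background. ATAC-seq regions were listed at all 9 genes in all 4 lines assayed, as they were at 95% (Ezh2 Y726D) to 95.4% (Ezh2 KO) of genes, so they did not separate the genes.

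Before expression was compared, the targeted genes were checked in the 8 RNA-seq libraries, as counts normalised between libraries by the authors. Ezh2 was at 598 and 546 in WT, at 1.05 and 0.968 in Ezh2 KO, at 0.824 and 1.78 in Ezh1/2 dKO and at 422 and 613 in Ezh2 Y726D. Ezh1 was at 227 and 377 in WT, at 372 and 378 in Ezh2 KO, at 14.01 and 20.4 in Ezh1/2 dKO and at 24.1 and 15.7 in Ezh2 Y726D, so each library stood where its label put it. The libraries held 3604123 to 5181553 reads assigned to genes. ESC markers (Pou5f1, Nanog and 5 others) summed to 11235 to 13883 across the libraries, and none of the 7 was called in any comparison by limma or edgeR, with at most 1 at an unadjusted p under 0.05. A gene was called here at an adjusted p (limma, Benjamini-Hochberg over all 13872 genes with a mean of at least 5) under 0.1 and a log2 difference of at least 1, on the scale log2(normalised count + 1). Of the 9 genes, 7 passed the limit on the mean, and Cyp26a1 and Cyp26b1 did not.

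Per kilobase of exon, which allows levels of different genes to be set side by side, Rarg led in WT at 177 ± 11.6 (SD, n = 2) normalised counts per kb, followed by Crabp1 at 91.9 ± 53.5, Rara at 86.3 ± 10.2, Aldh1a2 at 54.4 ± 2.29 and Crabp2 at 33.6 ± 16.7. The spread of Crabp1 reached over its neighbours in this order, so that Crabp1 and Rara were not separated. Aldh1a3 at 2.12 ± 0.544 and Rarb at 1.39 ± 0.319 were near the bottom, and both CYP26 genes had no read in either WT library. The order changed in Ezh1/2 dKO, with Crabp1 first at 350 ± 4.82 per kb, then Rarg at 93.9 ± 10.5 and Crabp2 at 89.2 ± 25.5, the last pair again within their spread. Lower still were Aldh1a2 at 34.6 ± 3.69, Rara at 33.1 ± 12.1 and Aldh1a3 at 8.27 ± 1.09.

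**Figure D3:**
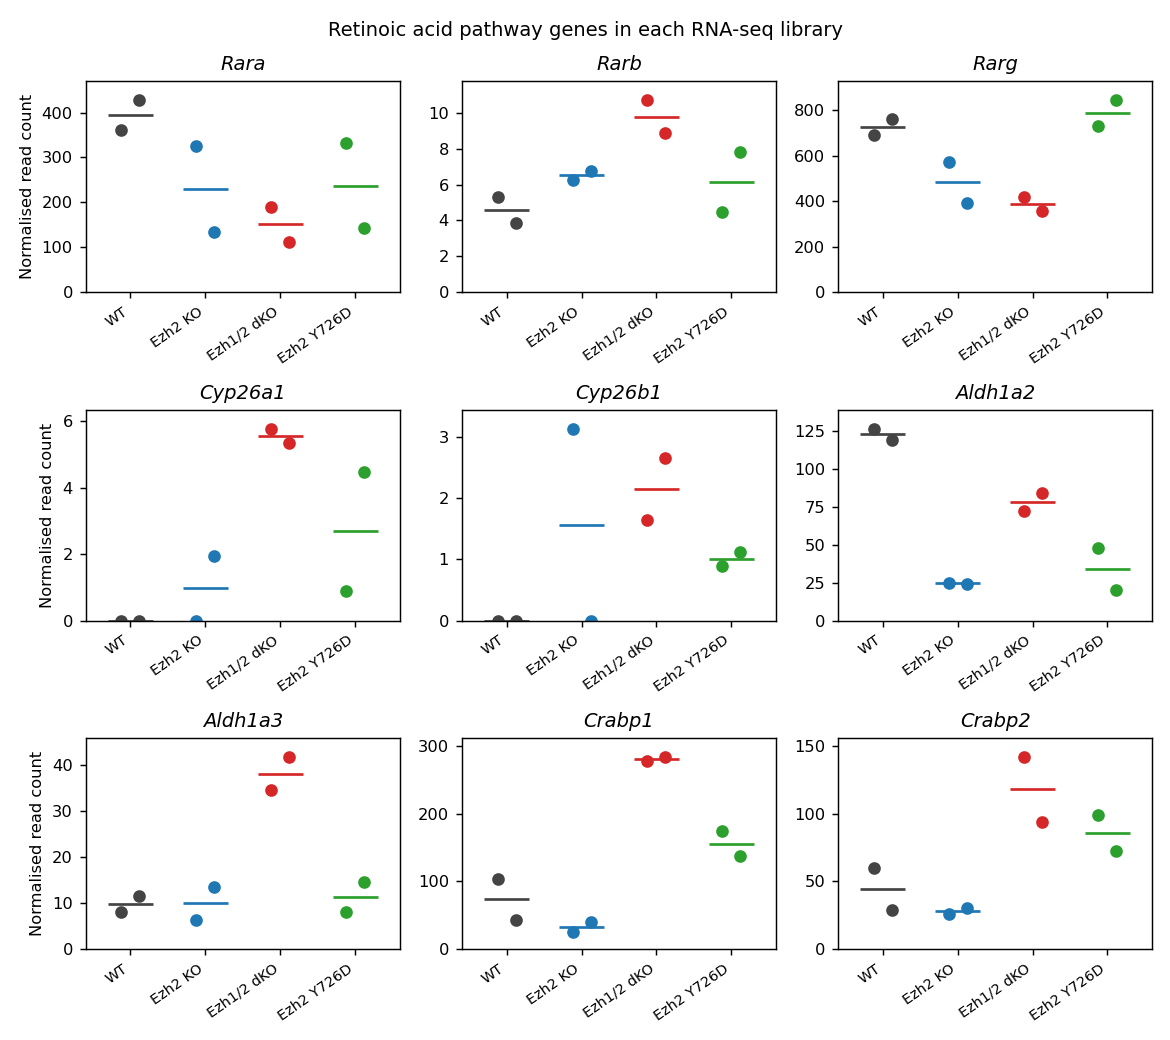
Normalised read count of each of the 9 genes in the 8 RNA-seq libraries, on a linear axis from 0 that differs between genes, with a point for each library and a line for the mean of the 2 libraries of a cell line. Crabp1 is highest in both Ezh1/2 dKO libraries at 278 and 283, and Aldh1a2 is highest in both WT libraries at 127 and 119.4.

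The binding proteins gave the clearest rise. Crabp1, which holds retinoic acid in the cytoplasm and is linked to its breakdown, stood at 104 and 43.3 normalised counts in WT, 25.1 and 39.7 in Ezh2 KO, 278 and 283 in Ezh1/2 dKO and 174 and 138 in Ezh2 Y726D. Both Ezh1/2 dKO libraries lay above all others, both Ezh2 Y726D libraries above WT, and both Ezh2 KO libraries below WT. Crabp1 rose 4.13-fold in Ezh1/2 dKO against WT (log2 difference 2.04 ± 0.40 SE, 95% interval 1.14 to 2.95, adjusted p = 0.0380) and 8.64-fold against Ezh2 KO (3.11 ± 0.40, adjusted p = 0.00648). In Ezh2 Y726D the difference from WT was 1.19 ± 0.40 with an interval of 0.28 to 2.097 and did not pass the adjusted threshold (limma, adjusted p = 0.207), and in Ezh2 KO it was −1.07 ± 0.40 (limma, adjusted p = 0.464). The rise against WT was lost when either Ezh1/2 dKO library was left out, with the adjusted p reaching 0.291, while that against Ezh2 KO held without any one library (highest adjusted p 0.0933).

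Crabp2, which delivers retinoic acid to the receptors in the nucleus, followed a like pattern. It was at 60.0 and 28.9 in WT, 26.1 and 30.0 in Ezh2 KO, 142 and 94.1 in Ezh1/2 dKO and 99.0 and 72.7 in Ezh2 Y726D. The Ezh1/2 dKO and Ezh2 Y726D libraries all lay above both WT libraries, and the Ezh2 KO libraries overlapped WT. It rose 4.02-fold in Ezh1/2 dKO against Ezh2 KO (2.01 ± 0.41, adjusted p = 0.0409), a call that ended without either library of Ezh2 KO or of Ezh1/2 dKO (adjusted p up to 0.378). Against WT, the difference in Ezh1/2 dKO was 1.45 ± 0.41 (interval 0.53 to 2.36, adjusted p = 0.103), next to the threshold, and in Ezh2 Y726D 1.01 ± 0.41 (adjusted p = 0.298). Crabp1 and Crabp2 were also alike across the libraries: among 9771 genes with a mean of at least 50, Crabp2 had the highest Pearson correlation with Crabp1 over the 8 libraries (0.974), followed by Mbp (0.972) and P4ha2 (0.971). For Crabp2 the most alike was Nin (0.988), with Crabp1 next. These values are descriptions over 8 libraries that share 4 lines. The 2 genes differed at the chromatin, Crabp1 having SUZ12 in 3 lines and Crabp2 in none.

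Aldh1a2, the main retinaldehyde dehydrogenase of the early embryo, whose start also lay in a PRC2 domain, moved the other way. It was at 127 and 119.4 in WT, 25.1 and 24.2 in Ezh2 KO, 72.5 and 84.4 in Ezh1/2 dKO and 48.1 and 20.1 in Ezh2 Y726D. All 6 mutant libraries lay below both WT libraries, and those of Ezh2 KO and Ezh1/2 dKO did not overlap. Aldh1a2 fell 4.84-fold in Ezh2 KO (log2 difference −2.27 ± 0.41, interval −3.19 to −1.36, adjusted p = 0.0860) and 3.85-fold in Ezh2 Y726D (−1.94 ± 0.41, interval −2.86 to −1.03, adjusted p = 0.0534). The difference of Ezh1/2 dKO from WT was −0.65 ± 0.41 (interval −1.56 to 0.27, adjusted p = 0.429), and it rose 3.09-fold from Ezh2 KO to Ezh1/2 dKO (1.63 ± 0.41, adjusted p = 0.0857). These calls stood close to the threshold. The fall in Ezh2 KO ended without any one library of WT, Ezh2 KO or Ezh1/2 dKO (adjusted p up to 0.403). That in Ezh2 Y726D ended without either WT library, either Ezh1/2 dKO library or Ezh2 Y726D replicate 2 (up to 0.167), and the rise from Ezh2 KO to Ezh1/2 dKO without either library of these 2 lines (up to 0.528). Among the 8 other alternatives, the fall in Ezh2 KO was not called without the filter on the mean (0.152), after quantile normalization (0.124), with replicate number as a block (0.129) or by edgeR (0.108), and the fall in Ezh2 Y726D was not called with only the 2 lines in the fit (0.207). The rise from Ezh2 KO was not called without the filter (0.107), with a higher filter of 20 (0.121), after quantile normalization (0.234) or with the block (0.111). The log2 differences themselves stayed between −2.32 and −2.23 in Ezh2 KO and between −2.55 and −1.34 in Ezh2 Y726D. The gene most like it over the 8 libraries was Acsm4, with a correlation of 0.988.

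Aldh1a3, the other retinaldehyde dehydrogenase measured, was low in 3 lines, at 8.004 and 11.6 in WT, 6.27 and 13.5 in Ezh2 KO and 8.02 and 14.5 in Ezh2 Y726D. Both Ezh1/2 dKO libraries, at 34.6 and 41.7, lay above every other library. The difference from WT was 1.88 ± 0.54 (interval 0.66 to 3.10, adjusted p = 0.112) and that from Ezh2 KO 1.92 ± 0.54 (adjusted p = 0.124), neither past the threshold. Both Aldh1a genes had SUZ12 and H3K27me3 at their starts in WT. Against WT, neither was called in Ezh1/2 dKO, and the difference between them was not tested.

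The CYP26 enzymes, which oxidize retinoic acid for removal, had the widest SUZ12 coverage of their windows in WT and almost no reads. Cyp26a1 was at 0 in both WT libraries, 0 and 1.94 in Ezh2 KO, 5.77 and 5.33 in Ezh1/2 dKO and 0.892 and 4.47 in Ezh2 Y726D, from 0, 2, 13 and 5 reads in the 4 lines. With 3 reads over the 2 WT libraries taken as the limit that a count of 0 allows, the Ezh1/2 dKO mean of Cyp26a1 was 3.22-fold above that limit. This bound allows for counting error in WT, and not for that in the 13 reads or for spread between libraries. No bound is given for Ezh2 Y726D, where 1 of the libraries lay under that limit of 1.72 normalised counts. Cyp26b1 was at 0 in both WT libraries, 3.14 and 0 in Ezh2 KO, 1.65 and 2.66 in Ezh1/2 dKO and 0.892 and 1.12 in Ezh2 Y726D, from 0, 3, 5 and 2 reads. These reads were too few for a fold. Both genes were nearly silent in every line, and neither was tested in the main fit because of the limit on the mean. Without that limit, limma called neither gene in any comparison. Cyp26a1 in Ezh1/2 dKO against WT then had a log2 difference of 2.71 (limma, adjusted p = 0.108). DESeq2 gave 4.73 ± 2.56 SE for it. In bulk RNA such as this, a gene read in few cells and a gene read at a low level in all cells cannot be told apart.

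None of the 3 receptor genes, which had no SUZ12 or H3K27me3 peak at their promoters, was called against WT in any line by limma. At an unadjusted p under 0.05 there were 3 differences, Rarg in Ezh2 KO and Rara and Rarg in Ezh1/2 dKO, all lower, and DESeq2 called Rara in Ezh1/2 dKO and edgeR none. Rarg, the receptor gene with the most counts per kb in WT, was at 692 and 760 in WT, 571 and 394 in Ezh2 KO, 416 and 355 in Ezh1/2 dKO and 731.1 and 844 in Ezh2 Y726D. Ezh1/2 dKO and Ezh2 KO lay below WT without overlap, and Ezh2 Y726D overlapped WT. Rarg was 2.04-fold higher in Ezh2 Y726D than in Ezh1/2 dKO (1.03 ± 0.19, interval 0.59 to 1.46, adjusted p = 0.0517), a call that ended without either Ezh1/2 dKO library or Ezh2 Y726D replicate 2 (adjusted p up to 0.504). Against WT, the value in Ezh1/2 dKO was −0.91 ± 0.19 with an adjusted p of 0.0453, which passed the p threshold and missed the fold limit of 1 on the log2 scale. In Ezh2 KO it was −0.61 ± 0.19 (limma, adjusted p = 0.339) and in Ezh2 Y726D 0.11 ± 0.19 (interval −0.32 to 0.55).

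Rara, which encodes RARα, was at 362 and 427 in WT, 325 and 134 in Ezh2 KO, 190 and 112 in Ezh1/2 dKO and 333 and 142 in Ezh2 Y726D. All mutant libraries lay below both WT libraries, and replicate 2 was the lower one in each mutant line. The largest difference from WT was that of Ezh1/2 dKO, −1.42 ± 0.48 (adjusted p = 0.158), and those of Ezh2 KO and Ezh2 Y726D were −0.91 ± 0.48 (0.631) and −0.85 ± 0.48 (0.484). Rarb, itself induced by retinoic acid, was barely expressed, at 5.34 and 3.85 in WT, 6.27 and 6.77 in Ezh2 KO, 10.7 and 8.88 in Ezh1/2 dKO and 4.46 and 7.83 in Ezh2 Y726D, from 8 to 23 reads a line. Its difference from WT in Ezh1/2 dKO was 0.96 ± 0.57 (interval −0.32 to 2.23, adjusted p = 0.399). Rarb thus had an H3K27ac peak in Ezh2 Y726D at a count that overlapped WT.

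**Figure D4:**
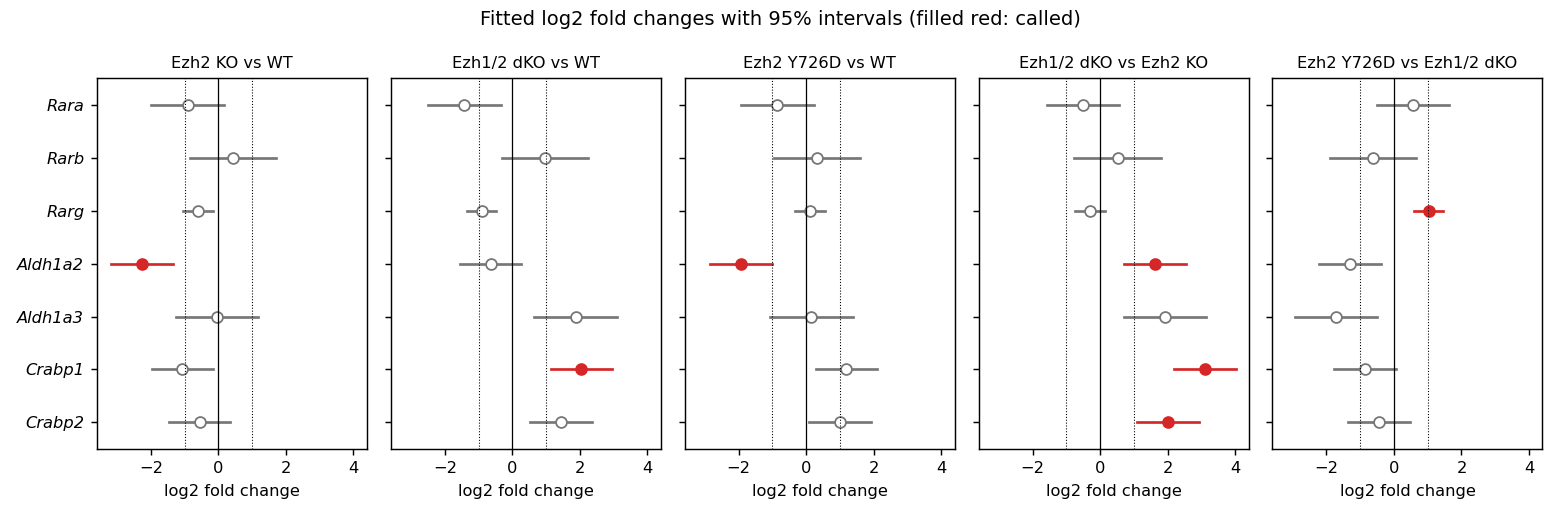
Log2 difference of the 7 tested genes in each of the 5 comparisons, with points for the limma estimate, horizontal bars for its 95% interval, dotted lines at −1 and 1 and filled red points for calls. Crabp1 sits at 2.04 in Ezh1/2 dKO against WT, and Aldh1a2 at −2.27 and −1.94 in Ezh2 KO and Ezh2 Y726D.

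Counted over the genes, 1 of the 7 tested was called in Ezh2 KO against WT (Aldh1a2, lower), where 0.31% of all genes tested were called lower and 0.404% in either direction. Likewise 1 was called in Ezh1/2 dKO (Crabp1, higher), against 3.63% higher and 4.02% in all, and in Ezh2 Y726D 1 (Aldh1a2, lower), against 1.06% lower and 2.72% in all. These 3 comparisons share the WT libraries. From Ezh2 KO to Ezh1/2 dKO, 3 were called higher (Aldh1a2, Crabp1 and Crabp2), against 3.52% of genes (3.58% in all), and from Ezh1/2 dKO to Ezh2 Y726D 1 was called higher (Rarg), against 0.187% (1.68% in all). The split of calls over all genes depended on scaling: in Ezh1/2 dKO against WT it was 503 higher and 54 lower, and 290 and 129 after quantile normalization, and in Ezh2 Y726D against Ezh1/2 dKO it was 26 and 207, and 50 and 168. Groups that did not overlap were common at 2 libraries a line. All 9 genes stood outside the WT range in Ezh1/2 dKO, 6 above (Rarb, Cyp26a1, Cyp26b1, Aldh1a3, Crabp1 and Crabp2) and 3 below (Rara, Rarg and Aldh1a2), where 52.5% of all genes tested did so. In Ezh2 Y726D 4 stood above (Cyp26a1, Cyp26b1, Crabp1 and Crabp2) and 2 below (Rara and Aldh1a2), against 37.1%, and in Ezh2 KO 1 above (Rarb) and 4 below (Rara, Rarg, Aldh1a2 and Crabp1), against 35.6%. These shares are over genes that passed the limit on the mean, which Cyp26a1 and Cyp26b1 did not. Neither of these had a WT read, so 1 read in each library was enough to put them above. Cyp26b1 in Ezh2 Y726D was such a case.

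The wider pathway was followed in 29 further genes of retinoid metabolism, of the receptors' nuclear partners and of retinoic acid response, of which 26 were in the table and 18 were tested. In Ezh2 KO 2 rose (Meis1 and Meis2) and none fell, in Ezh1/2 dKO 3 rose (Fabp5, Meis1 and Tgm2) and none fell, and in Ezh2 Y726D 1 rose (Meis1) and none fell, all by limma against WT. Of all genes tested, 0.0937%, 3.63% and 1.66% were called higher in these comparisons. At an unadjusted p under 0.05 the falls numbered 1, 0 and 1. By edgeR, 1, 3 and 2 were called higher and none lower. The median log2 difference of the 18 was −0.09, 0.62 and 0.25 in these lines, against −0.01, 0.01 and −0.01 over all genes tested. Meis1, a homeobox gene that responds to retinoic acid, was called in all 3 lines, at 29.3 and 16.4 in WT, 101.4 and 77.4 in Ezh2 KO, 178 and 129 in Ezh1/2 dKO and 70.4 and 94.0 in Ezh2 Y726D. Its adjusted p (limma) was 0.0909 in Ezh2 KO, close to the threshold, 0.0110 in Ezh1/2 dKO and 0.0480 in Ezh2 Y726D. Meis2 was at 204 and 210 in WT and at 551 and 518 in Ezh2 KO (log2 difference 1.36, adjusted p = 0.0262).

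Fabp5, a fatty acid binding protein that can carry retinoic acid to other nuclear receptors, was at 247 and 66.4 in WT and at 446 and 547 in Ezh1/2 dKO (adjusted p = 0.0953), a call that neither edgeR nor DESeq2 made. Tgm2, a transglutaminase induced by retinoic acid, was at 16.01 and 5.78 in WT and at 54.4 and 100.3 in Ezh1/2 dKO. Both lay above WT without overlap. Rbp4, the retinol carrier of the blood, rose from Ezh2 KO to Ezh1/2 dKO, from 1.05 and 2.90 to 61.0 and 47.9, and Dhrs3, which turns retinaldehyde back to retinol, fell from 142 and 195 in Ezh1/2 dKO to 63.3 and 41.4 in Ezh2 Y726D. They were the single pathway calls of these 2 comparisons, in which 3.52% of all genes were called higher and 1.49% lower. Of the genes without a call, the corepressor Ncor1 lay at 1418 to 2021 over the 8 libraries and the receptor partners Rxrb and Rxra at 180 to 243 and 62.7 to 239. The retinol dehydrogenases Rdh11, Rdh14 and Rdh10 lay at 86.1 to 171, 12.3 to 43.3 and 10.7 to 25.6. The induced genes Gbx2, Stra8 and Cdx1 varied more between libraries of a line, Gbx2 being at 78.5 and 384 in Ezh2 Y726D.

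Markers of other cell types were followed beside these genes. Of 4 tested markers of primitive endoderm, Gata4 and Dab2 rose in Ezh1/2 dKO. The list's sum was 299 to 453 in WT, 257 to 597 in Ezh2 KO, 416 to 621 in Ezh1/2 dKO and 280 to 793 in Ezh2 Y726D. Most of this sum was Lama1, which was not called, at 283 and 421 in WT and 296 and 511 in Ezh1/2 dKO. The sum therefore hid changes in the lower markers. Dab2 was at 10.7 and 6.74 in WT and 74.2 and 60.4 in Ezh1/2 dKO, and Gata4 at 2.67 and 4.81 and at 22.3 and 20.4. Sox17 and Foxa2 were at or near 0 throughout. Gata6 was at 0 and 1.93 in WT and 7.42 and 11.5 in Ezh1/2 dKO. Of 4 tested markers of trophectoderm, Krt8 and Krt18 rose in Ezh1/2 dKO and in Ezh2 Y726D, the sum being 315 to 400 in WT, 385 to 538, 607 to 875 and 541 to 1114 in the mutants in the same order, with Elf5 at or near 0. The other tested markers, Cdx2 and Tfap2c, were not called by limma. Against WT, the log2 difference of Tfap2c was 0.10 in Ezh1/2 dKO and −0.65 in Ezh2 Y726D, and that of Cdx2 was 0.84 and 2.15. Cdx2 varied between libraries of a line. It was the largest part of the highest sum, at 440 in Ezh2 Y726D replicate 2, and at most 83.5 in any other library. In Ezh2 KO, where Crabp1 was lowest, Krt8 and Krt18 also lay above WT without overlap, with log2 differences of 1.09 and 1.103 that limma did not call (adjusted p = 0.313 and 0.182) and of which DESeq2 called 1. Among the fibroblast markers only Thy1 was tested and rose in both lines. The neural ectoderm sum was 173 to 249.4 in WT, 204 to 441 in Ezh2 KO, 321 to 453 in Ezh1/2 dKO and 198 to 313 in Ezh2 Y726D. Much of it was Otx2, which varied between libraries of a line, as at 412 and 140 in Ezh2 KO. The sum of primitive streak and mesoderm was 68.4 to 74.7 in WT, 42.9 to 50.3 in Ezh2 KO, 85.7 to 126 in Ezh1/2 dKO and 97.2 to 276 in Ezh2 Y726D. None of the markers on those 2 lists was called against WT by limma, edgeR or DESeq2 in Ezh1/2 dKO, and none had an unadjusted p under 0.05 there. In Ezh2 Y726D limma and edgeR called none of the 2 lists, Eomes and Kdr had an unadjusted p under 0.05 and DESeq2 called 1 marker of the primitive streak and mesoderm list. The part of such markers in the differences of the retinoic acid genes was not tested.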

How the data were processed

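RNA-seq libraries were made from polyadenylated RNA by a SMART-seq2 protocol, which does not keep strand. The authors aligned reads to mm9 with TopHat, removed duplicates with PICARD and took counts over RefSeq genes from HTSeq-count without strand. The deposited values are normalized counts, a signal scaled by DESeq2 size factors, and 100% of them came back as whole reads (tolerance 0.001). For ChIP-seq the authors aligned reads with Bowtie and called peaks with MACS2, and the deposited lists give −log10 p per peak, used at p of at most 1e-10 for SUZ12, H3K27me3 and H3K27ac. That threshold is given in the study's reporting form, while its methods text gives 0.1. H3K27me2 and ATAC-seq lists were used as deposited, and the HA lists give positions only. The Drosophila spike-in of the study's H3K27me3 profiles does not enter these lists. Each −log10 p stands against its own library's background at unknown depth, so differences in height between lists were not interpreted.

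Here, limma 3.58.1 (R 4.3.3) was fitted with an expression-dependent prior variance to log2(normalized count + 1) of all 8 libraries, over 13872 genes with a mean of at least 5. Calls needed an adjusted p (Benjamini-Hochberg) below 0.1 together with a log2 difference of 1 or more in size. edgeR 4.0.16 and DESeq2 1.42.0, on the recovered reads, were alternatives. On simulated counts for Ezh1/2 dKO against WT (13717 genes), 193 of 200 genes changed 4-fold were recovered, with 20 false calls. The changed genes were drawn from those with at least 50 expected reads in a library. The recovery therefore does not describe genes with fewer reads, such as Aldh1a3 and Rarb, at means of 17.3 and 6.76 normalized counts. The libraries held 3604123 to 5181553 reads, and correlations of log2 values between the libraries of a line were 0.953 to 0.978. The study describes its samples as biological replicates, and the labels do not tell which libraries came from separate cultures, so p-values measure only the spread between these libraries, which may be partly technical. A promoter was 5 kb on each side of any start site in GENCODE vM1 (mm9), and an overlap of 1 bp counted. Promoter sequences came from RefSeq (GRCm38.p6) and were placed on NCBIM37 by exact match.

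The 9 genes, the pathway and marker lists and the tests were chosen with earlier results of these data known. Named from the pathway list were the genes called in any comparison and up to 3 further genes with the highest mean in each of its 3 groups. Some genes of that list are not reported here and were left out of its counts. Genes most alike were the 3 with the highest Pearson correlation among those with a mean of at least 50. Tables of the authors' own comparisons hold fold changes and p-values and were not used, nor were the remaining lists and SUZ12 libraries of treated or re-expressing cells. Coordinates are 1-based.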

Additional observations from a re-analysis of the deposited data

How the results depend on the processing

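The number of the 9 genes called changed as follows. In Ezh2 KO against WT the count went from 1 to 0 at an adjusted p under 0.05, without the filter on the mean, after quantile normalization, with the replicate block and by edgeR, and was 0 to 1 when single libraries were left out, Crabp1 taking the place of Aldh1a2 without WT replicate 2. In Ezh1/2 dKO against WT it went from 1 to 2 without the fold limit, 4 with the replicate block, 3 with only the 2 lines compared, 3 by DESeq2 and 2 by edgeR, and was 0 to 4 when single libraries were left out. The genes that joined Crabp1 there were Rarg (no fold limit), Rara (replicate block, only the 2 lines, DESeq2), Aldh1a3 (replicate block, only the 2 lines) and Crabp2 (replicate block, DESeq2, edgeR). In Ezh2 Y726D against WT it went to 0 at an adjusted p under 0.05 and with only the 2 lines, and was 0 to 1 when single libraries were left out, Crabp1 taking the place of Aldh1a2 without WT replicate 1. In Ezh1/2 dKO against Ezh2 KO it went from 3 to 1 after quantile normalization, to 2 at an adjusted p under 0.05, without the filter, at a mean of at least 20 and with the replicate block, and to 4 with only the 2 lines, and was 1 to 4 when single libraries were left out, and in Ezh2 Y726D against Ezh1/2 dKO it went from 1 to 0 at an adjusted p under 0.05 and after quantile normalization and was 0 to 2. With 2 libraries a line the replicate numbers were not taken as pairs: the correlations of same-numbered deviations ran from −0.41 to −0.07 between WT and the mutant lines and from 0.22 to 0.29 among the mutant lines. The causes of these changes were not tested.

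At p of at most 1e-20, genes with a SUZ12 peak fell from 4 to 3 in Ezh2 KO, 1 to 0 in Ezh1/2 dKO, 4 to 2 in Ezh2 Y726D and 5 to 4 in Ezh2 R685C. Those with an H3K27me3 peak fell from 6 to 4 in WT, where Aldh1a3 and Crabp2 dropped out. Those with an H3K27ac peak fell from 2 to 1 in Ezh2 KO, 2 to 1 in Ezh1/2 dKO and 6 to 2 in Ezh2 Y726D. Around the start of the longest transcript alone, H3K27ac peaks lay at 1 gene in Ezh2 KO, Ezh1/2 dKO and Ezh2 R685C each.

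Directions turned only for differences that were not called. Aldh1a3 in Ezh2 KO (−0.05) was 0.065 after quantile normalization, 0.012 by DESeq2 and 0.019 by edgeR, and −0.55 to 0.45 when single libraries were left out. Aldh1a3 in Ezh2 Y726D (0.16) was −0.064 after quantile normalization and −0.24 to 0.55, and Rarb there −0.023 to 0.67. From Ezh2 KO to Ezh1/2 dKO, Rarb was −0.35 after quantile normalization and Rara −1.15 to 0.13, and from Ezh1/2 dKO to Ezh2 Y726D Rara was −0.039 to 1.18. Over all genes the calls ranged, over the other alternatives and then over the left-out libraries, from 28 to 149 and 6 to 153 in Ezh2 KO against WT (56 as reported), from 285 to 727 and 3 to 729 in Ezh1/2 dKO (557), from 32 to 483 and 157 to 547 in Ezh2 Y726D (377), from 176 to 1181 and 53 to 693 in Ezh1/2 dKO against Ezh2 KO (496), and from 103 to 324 and 14 to 516 in Ezh2 Y726D against Ezh1/2 dKO (233). Where 1 library was left out, the lone library of its line was taken to vary like the others. Depth limited the CYP26 genes and Rarb, which rested on at most 23 reads a line.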
